A study of Mus musculus with 4 samples.

Results

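Serpina3, alpha-2-macroglobulin and the inter-alpha-trypsin inhibitors are families of protease inhibitors, most of them secreted by the liver into plasma. The Itih genes encode heavy chains, and all the genes are called inhibitors here for short. The 10 genes described here, Serpina3c, Serpina3g, Serpina3k, Serpina3m, Serpina3n, A2m, Itih1, Itih2, Itih3 and Itih4, were chosen by name, and their probes were found through the RefSeq accessions on the array. For 9 of the 10 a probe was found, and all 9 passed the filter on dim probes and were among the 25094 genes tested. Of these, 14065 have a gene symbol and the others are known by the array's accession only, and every share of all genes below is over the 25094. Serpina3g matched no probe through the gene table and was not analysed here. The 9 genes were read by 11 probes, with a second probe for A2m and for Serpina3k. The livers came from female CD-1 mice of 8 weeks, an outbred stock, given either a small interfering RNA (siRNA) against Cux2 or a non-specific siRNA. Cux2 is a homeobox transcription factor with female-biased expression in mouse liver, and the comparison was made to identify genes that respond to its knockdown. Treated mice were killed 5 days (5 mice, in pools of 3 and 2) or 8 days (4 mice, in 2 pools of 2) after Cux2 siRNA. The 13 controls formed 2 pools of 6 or 7 mice in the design text, whereas each sample's label gives 6. Each of the 4 arrays set 1 treated pool against 1 control pool, with the treated pool in Alexa 647 on replicate 1 and in Alexa 555 on replicate 2 of both days. Which control pool an array carried, when the controls were killed and how the siRNA was given are not stated in the sources used here.

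Serpins are suicide inhibitors: the target protease cuts a loop that the serpin offers as bait, and the 2 proteins stay locked together. Humans have a single SERPINA3, alpha-1-antichymotrypsin, which blocks neutrophil cathepsin G and mast cell chymase, while the mouse has a cluster of copies whose bait loops differ. A2m is a broad trap that closes around a protease of almost any class, after which the complex is cleared through the receptor Lrp1. The Itih genes encode the heavy chains that Ambp's product bikunin carries on its chondroitin sulphate and that are handed on to hyaluronan in the matrix. Itih4 is the exception, as it has no bikunin partner. In liver, Serpina3n, Itih3 and Itih4 are known as acute phase genes, and interleukin-6 acting through STAT3 and C/EBP factors is the textbook route to such genes.

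The sequences upstream of 4 of these genes are shown because the Serpina3c and Serpina3n genes both fell and have closely related upstream sequences, and because Itih4 and Itih2, of 1 family, moved in opposite directions. RefSeq promoters (build GRCm38.p6) matched 7 of the 10 genes, and the 250 bases before the annotated start were searched on both strands for TTCNNNGAA (STAT type), TTNNGNAAT (C/EBP type) and GAAANNGAA (the core of an interferon-stimulated response element). Capitals mark the matches, and no match overlapped another.
Serpina3n, chr12:104406458-104406707, + strand: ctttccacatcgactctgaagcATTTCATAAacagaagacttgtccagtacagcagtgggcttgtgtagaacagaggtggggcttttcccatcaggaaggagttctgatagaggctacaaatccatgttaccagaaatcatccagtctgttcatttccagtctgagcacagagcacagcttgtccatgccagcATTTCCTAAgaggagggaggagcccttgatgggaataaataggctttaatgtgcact
Serpina3c, chr12:104153873-104154122, - strand: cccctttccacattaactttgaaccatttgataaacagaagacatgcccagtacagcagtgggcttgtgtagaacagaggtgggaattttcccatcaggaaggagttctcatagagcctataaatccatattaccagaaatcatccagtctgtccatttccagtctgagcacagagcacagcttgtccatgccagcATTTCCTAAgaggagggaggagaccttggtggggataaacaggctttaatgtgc
Itih4, chr14:30886226-30886475, + strand: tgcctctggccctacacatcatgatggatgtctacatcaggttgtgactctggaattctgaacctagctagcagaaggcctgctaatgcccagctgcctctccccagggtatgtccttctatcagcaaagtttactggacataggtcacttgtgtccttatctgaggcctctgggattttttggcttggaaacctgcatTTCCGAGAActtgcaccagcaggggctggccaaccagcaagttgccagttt
Itih2, chr2:10130684-10130933, - strand: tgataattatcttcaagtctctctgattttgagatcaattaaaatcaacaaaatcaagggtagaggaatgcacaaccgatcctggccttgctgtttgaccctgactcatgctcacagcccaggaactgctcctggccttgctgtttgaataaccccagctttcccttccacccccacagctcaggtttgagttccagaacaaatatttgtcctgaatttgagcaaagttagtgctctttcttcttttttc
The Serpina3c and Serpina3n windows aligned over 247 columns with 229 identical bases (92.7%), and both hold the C/EBP-type match ATTTCCTAA, which begins 57 bases before the start of Serpina3n and 54 before that of Serpina3c. Serpina3n has a further match of this type, ATTTCATAA, 228 bases before the start. Itih4 holds a STAT-type match, TTCCGAGAA, 51 bases before its start. Itih2 and Itih3 hold none of the 3 motifs, the Itih1 window holds a C/EBP-type match, and that of Serpina3g a STAT-type match. Over the 32851 RefSeq windows of the same length, 7.02% hold the STAT type, 10.2% the C/EBP type and 7.13% the interferon core, so a match describes the letters of a window and nothing more. The windows of Itih1, Itih3 and Itih4 lie within 57.3 kb of chromosome 14, and that of Itih2 lies on chromosome 2.

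All ratios are log2 of treated over control, so that -1 is a halving, and limma gave standard errors (SE) and p-values, in 1 fit of all 4 arrays, adjusted by Benjamini-Hochberg over all genes tested. A gene passed at an adjusted p under 0.05. The arrays read 41174 probes each. In any channel 71.1% to 74.5% of them were well above background, with 0 spots saturated. Cux2 itself was lower in the treated pool on each array, at -1.91, -1.70, -1.07 and -1.20 in the order day 5 replicates 1 and 2, day 8 replicates 1 and 2. Over both days 16.3% of all genes fell and 14.8% rose. At day 5 these shares were 9.42% and 7.38%, and at day 8 they were 8.05% and 6.27%. With arrays centred on their median in place of loess, far fewer genes passed: 182 fell and 87 rose over both days, 4 fell and 1 rose at day 5, and 3 fell and 0 rose at day 8. Separate pools within a day carry opposite dyes, so the spread between them holds both the mice and the dyes. In RNA from whole liver, fewer cells of a type and less RNA per cell cannot be told apart.

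Over both days 5 of the 9 measured inhibitors fell (A2m, Itih4, Itih3, Serpina3n and Serpina3c), 1 rose (Itih2), and 3 did not pass (Serpina3k, Serpina3m and Itih1). The falls are 5 of 9 against 16.3% of all genes, and the median of the 9 ratios was -0.53, against 0.00 over all genes. The rise is 1 of 9 against 14.8% of all genes, which is no larger a share. On its brighter probe A2m lay at 11.9% of the control level (log2 -3.07, from -4.79 to -1.46 across processing settings). Its second probe, near the floor of intensity, gave a mean of -0.38. The other 4 lay between 45.9% and 71.9% of control. At each day taken alone the same 4 genes passed, with A2m, Itih4 and Serpina3n lower and Itih2 higher. Of all genes 9.42% fell and 7.38% rose at day 5, and 8.05% fell and 6.27% rose at day 8. Leaving out 1 array gave between 4 and 7 inhibitors past the threshold over both days, and median centring left A2m alone.

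**Figure D1:**
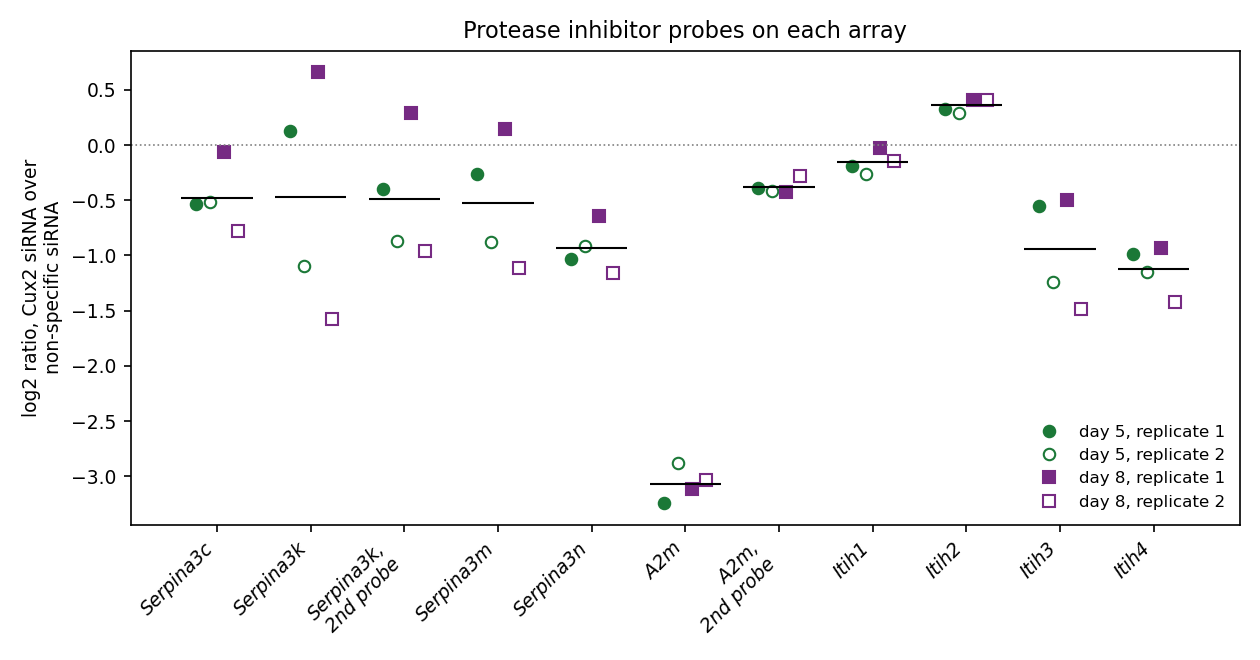
Log2 ratio of Cux2 siRNA over non-specific siRNA (vertical axis) for every probe of the 9 measured genes, with circles for day 5, squares for day 8, filled symbols for replicate 1 and open symbols for replicate 2. Bars are means over the 4 arrays. The A2m probe that stands for the gene lies near -3 on every array, Itih2 lies above 0 on every array, and the 4 points of Serpina3k are spread from -1.57 to 0.66.

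Among the Serpina3 genes, Serpina3n, an inhibitor of granzyme B in the mouse and a marker of reactive tissue, gave ratios of -1.04 and -0.91 on the day 5 arrays and -0.64 and -1.16 on the day 8 arrays (replicate 1 first, here and in what follows). All 4 arrays were below 0 and the days overlapped. Its mean over both days was -0.94 (SE 0.10, adjusted p = 0.00437, limma), or 52.2% of control. Each day also passed alone, day 5 at -0.97 (adjusted p = 0.0173) and day 8 at -0.90 (adjusted p = 0.0227). Neither single-day call remained with the scanner's processed signals (adjusted p = 0.0534 and 0.0649) or with no background subtraction (adjusted p = 0.0517 and 0.0635). The day 5 call also went without either of its arrays (adjusted p = 0.105 and 0.112), and the day 8 call without day 8 replicate 2 (-0.64, adjusted p = 0.103).

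Serpina3c, the mouse kallikrein-binding protein, gave -0.53 and -0.52 at day 5 and -0.07 and -0.78 at day 8. The arrays were all below 0, with day 8 replicate 1 almost at it. Its mean of -0.48 (SE 0.12) passed over both days (adjusted p = 0.0455) and for neither day alone (adjusted p = 0.113 and 0.186). The call over both days did not survive the loss of day 5 replicate 1 (-0.47, adjusted p = 0.128), of day 5 replicate 2 (-0.48, adjusted p = 0.133) or of day 8 replicate 2 (-0.30, adjusted p = 0.0559), nor the scanner's processed signals (-0.45, adjusted p = 0.0774), the absence of background subtraction (-0.41, adjusted p = 0.119) or of the filter on dim probes (-0.48, adjusted p = 0.0526). Without either day 8 array the day 5 fall passed (adjusted p = 0.0273). On each of the 4 arrays Serpina3n was lower than Serpina3c, by 0.38 to 0.57.

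Serpina3k, the mouse contrapsin, and Serpina3m, its near relative, were not lower on every array, and for both replicate 1 was the higher on each day. The Serpina3k ratios were 0.13 and -1.10 at day 5 and 0.66 and -1.57 at day 8, so both replicate 1 arrays were above 0 and both replicate 2 arrays were far below it. Their mean was -0.47, with a 95% interval from -1.55 to 0.61 (adjusted p = 0.453), in the fit that has no replicate block. The second Serpina3k probe gave -0.40 and -0.87 at day 5 and 0.29 and -0.96 at day 8, a narrower spread around a like mean of -0.48. Serpina3m gave -0.26 and -0.88 at day 5 and 0.14 and -1.12 at day 8. Its mean was -0.53, with an interval from -1.13 to 0.07 (adjusted p = 0.155). With a replicate block in the limma fit both means passed (adjusted p = 0.0347 for Serpina3k and 0.00805 for Serpina3m). Without day 8 replicate 1 the Serpina3m fall passed (-0.84, adjusted p = 0.0267), and without day 8 replicate 2 the Serpina3k mean turned above 0 (0.086, adjusted p = 0.864). The Serpina3 genes are related copies and the probe sequences were not used here. A value given for one may thus hold signal from another, which was not tested.

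Of the 6 other Serpina3 genes looked for, 1 was tested. Serpina3f gave -3.01 and -3.73 at day 5 and -3.49 and -3.56 at day 8 on the probe that stands for it, and its mean of -3.45 (SE 0.12) passed (adjusted p = 0.000772). Its second probe gave a mean of -2.95. The Serpina3f fall was thus larger on each array than that of any measured Serpina3 gene above.

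A2m encodes the tetrameric alpha-2-macroglobulin. On the probe that stands for it the day 5 arrays gave -3.24 and -2.88 and the day 8 arrays -3.11 and -3.03. The 4 arrays lay within 0.4 of each other and the days overlapped. The mean over both days was -3.07 (SE 0.08, adjusted p = 0.000378), an 8.38-fold lower level, and A2m is 1 of the 41 genes that passed with a fall at least as large. Day 5 (-3.06, adjusted p = 0.00191) and day 8 (-3.07, adjusted p = 0.00192) passed alone as well. The size of the fall depended on the processing. It was -4.79 with the scanner's processed signals, which differ in background subtraction and in dye normalization, and -1.46 with no background subtraction. At day 8 the call was lost with median centring (-3.06, adjusted p = 0.0564). A second, dimmer A2m probe, above background in 7 of the 8 readings, gave -0.39, -0.41, -0.42 and -0.28 in the same order. Both probes were lower on all 4 arrays but differ in size, and with their mean taken for the gene the fall was -1.72 (adjusted p = 0.000637). In the control pools the second probe read only 6.49 to 6.62 in log2 intensity, near the floor, and the first read 9.32 to 9.56. The 2 probes thus differed in the control pools already. The first probe read 6.32 to 6.44 in the treated pools, so the floor limits the fall that either probe can show. Why the probes differ, and which of them better reports the A2m level, was not tested.

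Of the other proteins that do A2m's work, Mug1 and Mug2, the murinoglobulins, are monomeric relatives, Pzp is the tetrameric relative, Lrp1 is the clearance receptor and Lrpap1 is its chaperone. None of these 5 passed in the limma fit, and 0 of 5 had an unadjusted p under 0.05. Their means over both days ran from -0.37 for Pzp (adjusted p = 0.212) through -0.15 for Lrp1 and 0.04 for Lrpap1 to 0.21 for both Mug1 and Mug2. Pzp gave -0.03 and -0.71 at day 5 and 0.09 and -0.84 at day 8, so replicate 2 was the lower array on both days, as for Serpina3k.

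The inter-alpha-trypsin heavy chains went in both directions. Itih4, the acute phase heavy chain without bikunin, gave -0.99 and -1.15 at day 5 and -0.93 and -1.42 at day 8. Every array was near or beyond a halving. Its mean was -1.12 (SE 0.09, adjusted p = 0.00285), or 45.9% of control, and each day passed alone (adjusted p = 0.0138 and 0.0127). Single-day calls rested on their own arrays: that of day 5 was lost without its replicate 1 (-1.15, adjusted p = 0.0663) or its replicate 2 (-0.99, adjusted p = 0.112), and that of day 8 without its replicate 2 (-0.93, adjusted p = 0.0709).

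Itih3, a heavy chain of pre-alpha-inhibitor, gave -0.56 and -1.24 at day 5 and -0.50 and -1.49 at day 8. All arrays were below 0, and replicate 2 was the lower on both days. The mean of -0.95 (SE 0.20) passed over both days (adjusted p = 0.0254), with single days at adjusted p = 0.0991 and 0.0854. The call went if day 5 replicate 2 was left out (-0.77, adjusted p = 0.0879), if day 8 replicate 2 was left out (-0.70, adjusted p = 0.0546) and with no background subtraction (-0.85, adjusted p = 0.085). Day 5 alone passed once either day 8 array was left out (adjusted p = 0.0486).

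Itih2, which pairs with Itih1 on bikunin in inter-alpha-inhibitor, was the single riser, at 0.32 and 0.29 on day 5 and 0.41 and 0.41 on day 8. The 4 values lay close together and all were above 0. The mean was 0.36 (SE 0.05, adjusted p = 0.00693), or 128% of control, and both days passed (adjusted p = 0.0409 and 0.024), though neither day did with the scanner's processed signals (adjusted p = 0.155 and 0.11) or without any 1 of the 4 arrays (adjusted p from 0.0553 to 0.238). Itih1 gave -0.19, -0.26, -0.03 and -0.14 in the order of the arrays above. Its mean of -0.16, with an interval from -0.29 to -0.02, did not pass over both days (adjusted p = 0.0776), but did with no background subtraction (-0.12, adjusted p = 0.0484). Itih2 was higher than Itih1 on all 4 arrays, by 0.44 to 0.56, higher than Itih3 by 0.88 to 1.90 and higher than Itih4 by 1.31 to 1.83.

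No inhibitor differed between the days past the threshold. The differences, day 8 minus day 5, ran from -0.10 (Itih4) to 0.14 (Itih1) over the 9 genes, and 0 of 9 had an unadjusted p under 0.05. Over all 25094 genes, limma called 0 and 621 had an unadjusted p under 0.05. The intervals were wide for some genes: that of the Itih3 difference ran from -1.13 to 0.94 and that of Serpina3k from -2.13 to 2.19. That of A2m was narrower, from -0.41 to 0.38.

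**Figure D2:**
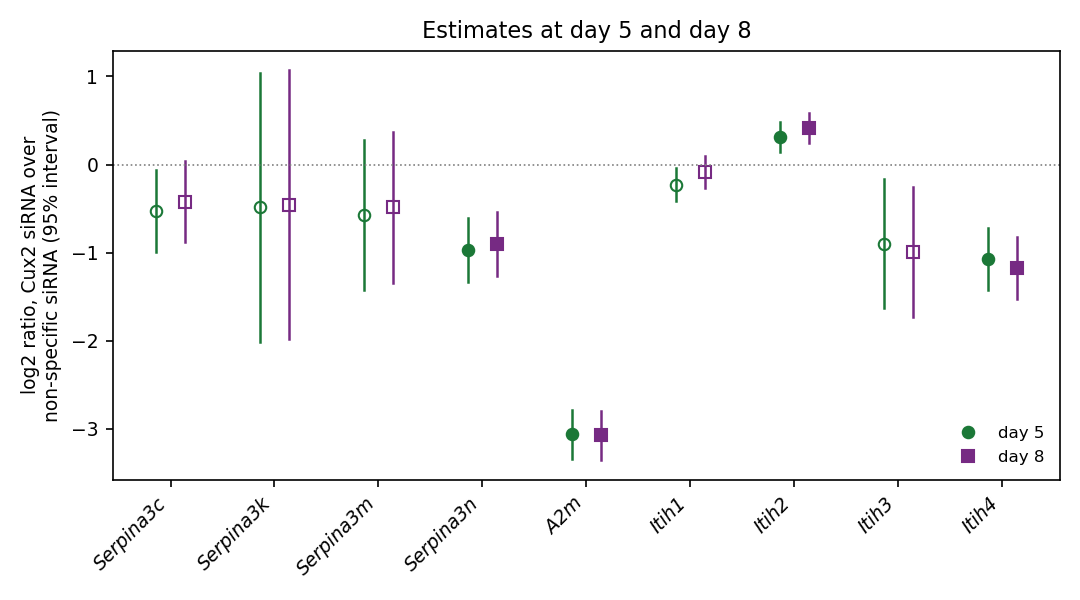
Log2 ratio of Cux2 siRNA over non-specific siRNA (vertical axis) at day 5 (circles) and day 8 (squares) from the limma fit, with 95% intervals, for the 9 measured genes. Filled symbols passed at an adjusted p under 0.05; A2m, Serpina3n, Itih4 and Itih2 are filled on both days, and the intervals of each gene overlap between days.

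The genes with wide intervals were those with the brightest probes. Serpina3k, Serpina3m and Itih3 have mean log2 intensities above 17, and their replicate 1 ratios exceeded their replicate 2 ratios by 1.22, 0.62 and 0.68 at day 5 and by 2.23, 1.26 and 0.99 at day 8. Over the 120 genes of that brightness the median difference between replicate 1 and replicate 2 was 0.88 at day 5 and 0.98 at day 8. In the 233 genes with intensities from 16 to 17 it was 0.29 and 0.30, and below 16 the medians lay between -0.06 and 0.04. At a log2 intensity of 17 and over 11.7% of genes passed over both days, against 38.3% from 14 to 16. Itih2, whose probe lies just above 16, differed by 0.03 and 0.00 between the replicates, and A2m, with an intensity near 8, by -0.36 and -0.08. Replicate number and dye orientation coincide on these arrays and cannot be told apart. Which control pool each array carried is not stated, so the control pool may coincide with them as well.

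**Figure D3:**
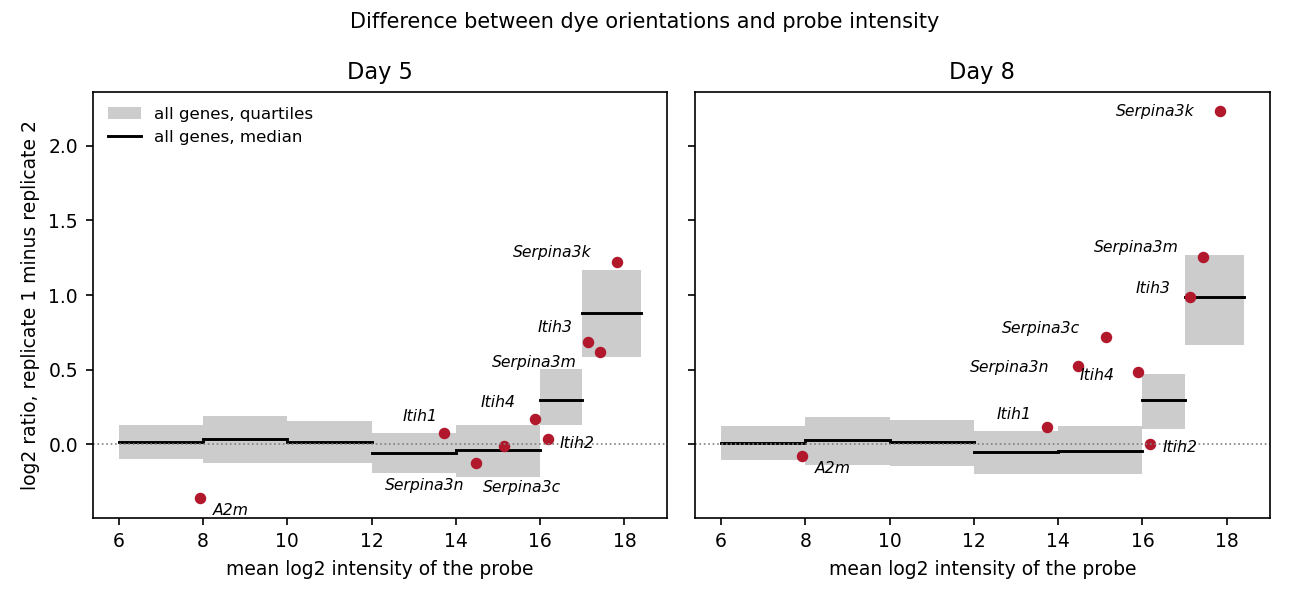
Replicate 1 minus replicate 2 in log2 ratio (vertical axis) against the mean log2 intensity of the probe (horizontal axis) at day 5 and day 8; lines are medians and shading the range between the quartiles of all genes in each intensity range, and points are the 9 inhibitors. Medians rise to 0.88 and 0.98 at intensities of 17 and over, where Serpina3k, Serpina3m and Itih3 lie.

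Around the inhibitors, the liver's other serpins also moved both ways. Of 18 tested, 8 fell, 3 rose and 7 did not pass, with a median of -0.22. Over all genes 16.3% fell and 14.8% rose, so the 3 rises are near the share of all genes. The largest falls were in Serpina7, the thyroxine-binding globulin (-1.82, adjusted p = 0.00295), Serping1, the C1 inhibitor (-1.36, adjusted p = 0.00133), and Serpina10, the protein Z-dependent inhibitor (-1.20, adjusted p = 0.00261). The rises were in Serpinb1a, an inhibitor of neutrophil proteases (0.88, adjusted p = 0.00327), Serpine2, protease nexin (0.34, adjusted p = 0.0155), and Serpina6, the corticosteroid carrier (0.31, adjusted p = 0.0195). Of the other plasma inhibitors, 8 of 14 did not pass. There were 3 falls (Timp1 at -1.05, Slpi at -0.69 and Pi16 at -0.25) and 3 rises (Fetub at 0.57, Timp2 at 0.43 and Spint2 at 0.41). Both counts are near the shares of all genes.

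Among the partners of the heavy chains and the genes of hyaluronan, 9 were tested. The 2 falls and 1 rise among them are near the shares of all genes. Cd44, the hyaluronan receptor, fell (-0.79, adjusted p = 0.0136), as did Hmmr (-0.27, adjusted p = 0.0342), which was above background in 1 of 4 treated readings, and the hyaluronidase Hyal2 rose (0.34, adjusted p = 0.00977). Ambp, the source of bikunin, gave -0.21 and -1.16 at day 5 and -0.12 and -1.33 at day 8, with a mean of -0.70 that did not pass (adjusted p = 0.0995).

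Of 17 proteases that these inhibitors are known to meet, 8 fell and 0 rose in the limma fit, while 1 had a rise at an unadjusted p under 0.05. The largest falls were in the collagenase Mmp13 (-1.34, adjusted p = 0.00432), granzyme A, Gzma (-1.30, adjusted p = 0.0106), and the macrophage cathepsin Ctss (-1.19, adjusted p = 0.0087). Ctsg, cathepsin G, fell by 0.73 (adjusted p = 0.00604). Ambp and Ctsg are named for their known partnership with these inhibitors, after their values had been seen.

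The interleukin-6, STAT3 and C/EBP list is wider than its name, as it also holds Il1b, Il1r1, Il1rn, Tnf, Tnfrsf1a and Nr3c1. It fell in 15 of 19 genes and rose in 0, also at an unadjusted p under 0.05, with a median of -0.48. Of all genes 16.3% fell and 14.8% rose. Il1rn, the interleukin-1 receptor antagonist, fell by 2.05 (adjusted p = 0.00165), Socs3, the feedback inhibitor that STAT3 induces, by 1.19 (adjusted p = 0.00355) and Stat3 itself by 0.98 (adjusted p = 0.00959). The lists were chosen with results of these data known, so these counts are a description.

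**Figure D4:**
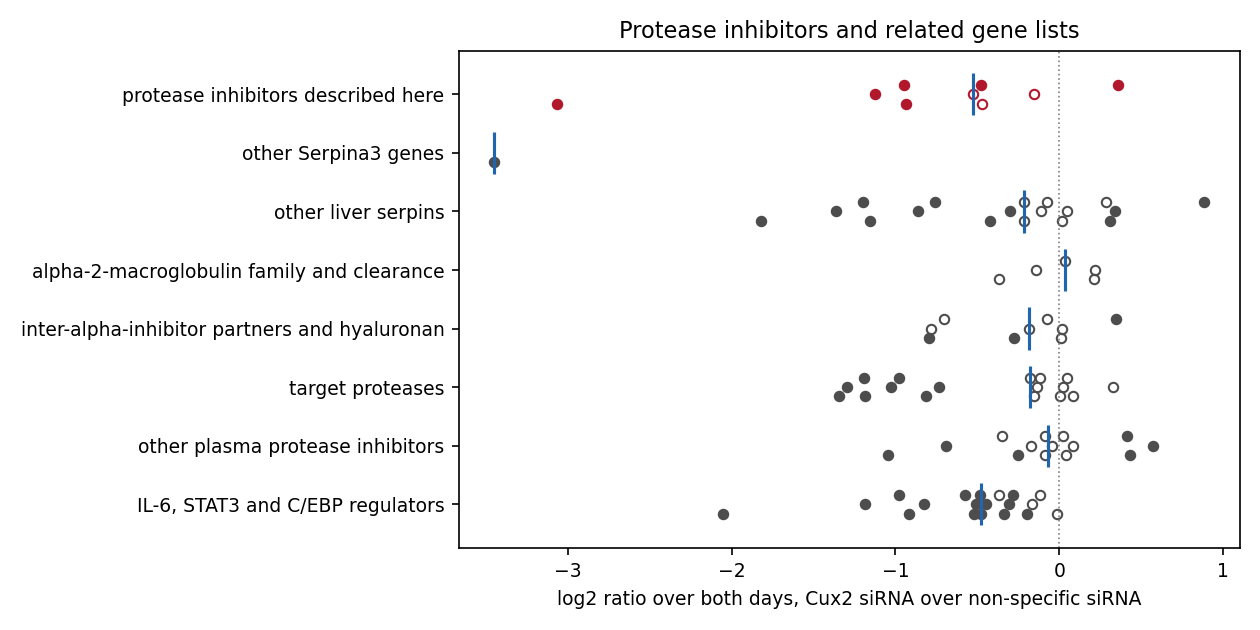
Log2 ratio over both days (horizontal axis) of each tested gene in the inhibitor set and in 7 related lists; filled points passed at an adjusted p under 0.05 and the blue line is the list's median, from -3.45 for the single other Serpina3 gene to 0.04 for the alpha-2-macroglobulin relatives. Vertical offsets within a list separate the points and carry no value.

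Markers of other cells and of inflammation moved with these genes. Interferon-induced genes fell in 17 of 17 (median -3.36; Ifit1 at -4.75, Gbp3 at -4.31 and Igtp at -4.07), with 0 rises at an unadjusted p under 0.05. Acute phase genes outside the set fell in 16 of 22 (median -1.83; Saa1 at -4.39, Lcn2 at -4.15 and Saa3 at -3.85). None of them rose past the threshold in limma, and 1 had a rise at an unadjusted p under 0.05: Hamp, the hepcidin gene, at 0.86 (adjusted p = 0.0594). Macrophage markers fell in 13 of 16 (Marco at -2.84, Fcgr1 at -1.76), while Vsig4 (-0.08) and Csf1r (-0.34) did not pass. Their summed intensity was 53697 to 84883 in the treated pools and 106863 to 116322 in the control pools. Neutrophil markers fell in 6 of 9 (S100a9 at -2.50, S100a8 at -2.41), with Camp (0.02) and Ltf (-0.10) not past the threshold. Their sums were 2882 to 4381 against 13062 to 18239.5. T and NK cell markers fell in 9 of 14, with sums of 2809 to 3126 against 4139 to 5069. B cell markers fell in 1 of 5 (Blnk) and rose in 1 (Cd79b), against 16.3% and 14.8% of all genes. The part that any of these cells or of inflammation had in the inhibitors' ratios was not tested.

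Hepatocyte markers, which check the labelled tissue, were above background in all readings, with Hnf4a higher (0.37), Apob (-0.69) and Ttr (-0.27) lower. The other 4 of 7, Alb (0.08), Apoa1 (0.18), Tat (0.02) and Fgb (-0.91), did not pass. Exocrine pancreas markers separated 1 array from the rest: 14 of 14 were lower in the treated pool on day 5 replicate 1, day 5 replicate 2 and day 8 replicate 2, and 2 of 14 on day 8 replicate 1. Over both days 7 of the 14 fell (Reg2 at -3.88, Reg1 at -3.55), while Cela1 (-1.24) and Amy2a5 (-0.67) did not pass. Their sums were 12892 to 15959 in the treated pools of the 3 arrays and 52221 in that of day 8 replicate 1. In the control pools they were 35484 (day 5) and 35852 (day 8) on replicate 1, and 85708.5 and 94186 on replicate 2. On day 8 replicate 1 A2m was as low as elsewhere (-3.11). The other falling inhibitors had their smallest falls there: Itih4 at -0.93, Serpina3n at -0.64, Itih3 at -0.50 and Serpina3c at -0.07. Day 5 replicate 1, where all 14 pancreas markers were lower, gave almost the same for Itih4 (-0.99) and Itih3 (-0.56), and 0.13 for Serpina3k. On day 8 replicate 1 the Serpina3c probe read 14.5 in log2 intensity in the control pool, against 15.5 to 15.8 on the other arrays. Serpina3k (0.66) and Serpina3m (0.14) were above 0 on that array. Without it the falls over both days were -3.05 for A2m, -1.24 for Itih4, -1.07 for Serpina3n, -1.19 for Itih3 and -0.66 for Serpina3c. Itih2 was then at 0.36. The 3 arrays left all had lower pancreas markers in the treated pool. The part of that difference in the inhibitors' ratios was not tested.

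**Figure D5:**
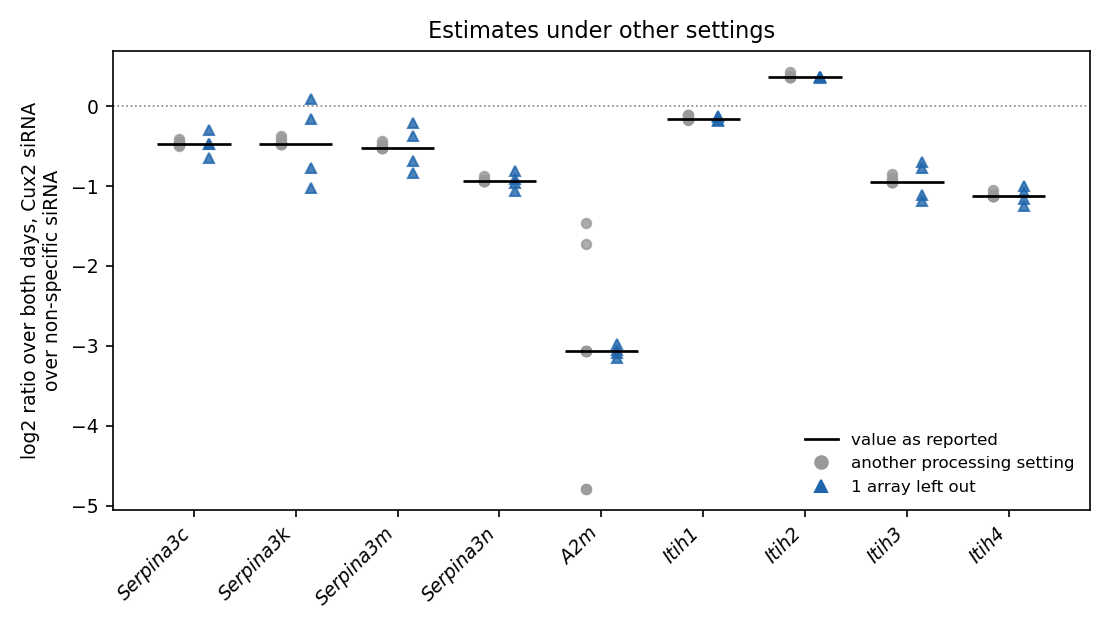
Log2 ratio over both days (vertical axis) of the 9 inhibitors as reported (black bars), under 9 other processing settings (grey circles) and with 1 array left out (blue triangles). The A2m values range from -4.79 to -1.46 across processing settings and from -3.16 to -2.98 across left-out arrays, whereas those of Serpina3k range from -1.03 to 0.086 across left-out arrays.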

How the data were processed

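RNA of pooled female mouse livers was measured on 4 Agilent 2-colour arrays. Trizol-extracted RNA went through 1 round of antisense amplification before dye coupling, per the labels' protocols. Per the file headers, Agilent Feature Extraction 10.7.1.1 read the spots. Intensity values as deposited, used here, were median spot and local background signals as scanned, and the deposited processed intensity values, which the scanner software had background-subtracted and dye-normalized per the file headers, were an alternative. Values in the authors' table are log10 ratios that equalled the scanner's log10 ratios within 1e-05 for all 45018 features, as treated over control, with a median of 0 in every column. The array design's build in the file headers differs from GRCm38.p6, so probes were given no coordinates, and those of the promoter windows are RefSeq's in GRCm38.p6.

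Values were recomputed in limma 3.58.1 (R 4.3.3), with normexp background correction (offset 50), and loess normalization within each array, with the 1639 control spots and outlier spots (99 to 204 an array, left out) at weight 0. Ratios were turned to treated over control by the dyes in the labels, and spots were averaged per probe. Probes well above background in at least 2 of 8 channel readings were kept (31762 of 41174). RefSeq accessions named 23374 probes (56.8%). The probe of highest mean intensity stood for a gene, as 5370 genes had several. A single lmFit and eBayes fit of the 4 arrays gave the effects of day 5 and day 8, the mean of both and the day 8 minus day 5 difference. It rested on 2 residual degrees of freedom plus 2.78 from the prior, and the number of arrays limits the precision. Spike-in slopes of 0.908 to 0.923 in the file headers show slight compression of the scanner's own ratios. They do not measure that of the ratios recomputed here. The script was tested on simulated data. Pools stand in for animals and the control pools recur between arrays, so p-values measure the spread between these pools, dyes included.

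Genes were named by a rule: every inhibitor with every probe, Cux2, and of each related list the genes past the threshold over both days, at most 3 rises and 3 falls, and genes that a count of 5 or fewer covers; of cell markers up to 2 that passed and 2 that did not. The genes and lists were chosen with earlier results of these data known. Alternatives were other background corrections, centring, filters and probe rules, the authors' table, a replicate block and each array left out. Promoter windows were aligned pairwise by local alignment.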

Additional observations from a re-analysis of the deposited data

How the results depend on the processing

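Over both days A2m passed in all 13 alternatives, Serpina3n, Itih2 and Itih4 in 12 (not with median centring), Itih3 in 9 and Serpina3c in 5. Inhibitors past the threshold, 4 at each day and 6 over both days, came to 1, 0 and 1 with median centring (day 5, day 8, both days), to 2 at day 5 and 2 at day 8 with the scanner's processed signals and with the authors' value table, and to 1 to 5 (day 5), 1 to 3 (day 8) and 4 to 7 (both days) with 1 array left out. All genes past it, 4217, 3595 and 7798, came to 5, 3 and 269 with median centring, at day 5 to 2005 (processed signals) and 1999 (value table), at day 8 to 1475 and 1463, and to 2118 without background subtraction. With 1 array left out they were 239 to 3605, 137 to 2473 and 3880 to 5504. A lone array of a day was then assumed to vary like the others.

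The replicate numbers are shared by day 5 and day 8 and mark the dye orientation, and the replicate differences of the 2 days correlated across genes (r = 0.50 over 25094 genes, which are not independent). Over the 353 genes of log2 intensity 16 and over r was 0.72. With a replicate block 8 inhibitors passed at day 5, 6 at day 8 and 9 over both days, and 8228, 7451 and 11247 of all genes did. Over both days Serpina3k (-0.47, adjusted p = 0.0347), Serpina3m (-0.53, adjusted p = 0.00805) and Itih1 (-0.16, adjusted p = 0.0357) then passed.

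Signs turned for uncalled values only. With 1 array left out the Serpina3k ratio ranged from -1.10 to 0.13 (day 5), from -1.57 to 0.66 (day 8) and from -1.03 to 0.086 (both days), and that of Serpina3m at day 8 from -1.12 to 0.14. The difference between days ranged from -0.26 to 0.46 for Serpina3c, -1.09 to 1.14 for Serpina3k, -0.55 to 0.71 for Serpina3m, -0.19 to 0.33 for Serpina3n, -0.20 to 0.17 for A2m, -0.59 to 0.40 for Itih3 and -0.35 to 0.14 for Itih4. It also turned for Serpina3k (-0.0023 with processed signals and with the value table) and for A2m (0.067 with both, 0.013 with median centring and 0.017 with the mean of all probes). The causes were not tested.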
